A study of Rattus norvegicus with 24 samples.

Results

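Grin2a and Camk4 are 2 of the 32883 genes counted in the rostral posterior hypothalamic (rPH) region of rats that had heard loud noise on 0, 1, 3 or 7 days. Their rows were taken from the count table by Ensembl identifier, Grin2a as ENSRNOG00000033942 and Camk4 as ENSRNOG00000020478. Both genes were chosen by their measured read counts, with their higher values in the group of 7 exposures already known, so their differences between that group and the control or 1-exposure group are given as descriptions without a test. Chromosome positions are not given for either gene, because no annotation of the rn6 build was used here.

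The animals were adult male Sprague-Dawley rats from Envigo, 24 in all, with 6 per group. Every rat was handled and put into a sound-attenuating chamber daily for 7 days, and every rat had a tail blood sample on the last day. Control (C) rats heard only background fan noise there, acute stress (AS) rats had 1 loud white noise session, and the repeated stress groups had 3 (RS3) or 7 (RS7). The last session fell on day 7 for all, and the rats were killed 24 h after it. The tissue was a block cut from a coronal slice with the mammillothalamic tracts as landmarks, so each value is the average of all cells in the block. The study retained 20 rats, 5 per group, and left out 1 per group, which were C rat 20 and RS7 rat 1 at the ends of the exposure range and AS rat 18 and RS3 rat 8 between them. These 4 rats took no part in the choice of the genes and are described separately.

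NMDA receptors are glutamate-gated cation channels that pass calcium when glutamate binds while the membrane is depolarised. They are assembled from an obligatory GluN1 subunit and GluN2 subunits, and Grin2a encodes the GluN2A subunit, whose share of the receptors rises over GluN2B as brain circuits mature. Camk4 encodes calcium/calmodulin-dependent protein kinase IV, a largely nuclear kinase of neurons that is activated by calcium-bound calmodulin and phosphorylates the transcription factor CREB, so the genes stand at the entry of calcium at the synapse and at its readout in the nucleus.

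Between 8087697 and 16947298 reads per retained rat were counted on genes, and 16202 genes passed the filter on low counts. Grin2a had 110 to 544 reads per retained rat and Camk4 had 96 to 387, which gives a counting error of 4.29% to 9.53% for Grin2a and 5.08% to 10.2% for Camk4. The share of counts held by the 10 most abundant genes of a library ran from 12.4% to 20.3% in the retained rats and was highest in C rats 21 and 22 and RS7 rat 4. The labelled region was checked against its markers: the hypothalamic neuropeptide genes with an identifier (Avp, Oxt, Trh, Gal and Sim1) were detected in all 20 rats, but Avp ranged from 0.0781 to 86.8 CPM. The genes of a dorsal thalamus marker list were together abundant in every rat.

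Grin2a was lowest in the AS group and highest in the RS7 group. Levels are given as CPM, the reads of the gene scaled to a common library size with TMM factors. The 5 C rats (numbers 19, 21, 22, 23 and 24) had 16.9, 14.6, 24.8, 21.6 and 22.0 CPM, and the 5 AS rats (13 to 17) had 21.8, 15.4, 18.2, 13.3 and 14.8 CPM. The RS3 rats (7, 9, 10, 11 and 12) had 19.4, 32.3, 22.2, 18.9 and 27.1 CPM, and the RS7 rats (2 to 6) had 32.2, 35.9, 31.7, 32.2 and 36.2 CPM. All 5 RS7 rats stood above every C and every AS rat, and RS3 rat 9 was the one rat of another group within the RS7 range. The group means were 20.0 ± 4.13 CPM in C, 16.7 ± 3.34 in AS, 24.0 ± 5.65 in RS3 and 33.6 ± 2.21 in RS7 (SD, n = 5 each). The rats of the RS7 group were the most alike, with a coefficient of variation of 6.56% against 20.7% in C, 20.0% in AS and 23.6% in RS3. These spreads come from the values used to choose the gene and were not tested.

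Camk4 had the same order of group means over a narrower range. The C rats, in the same order of rat numbers, had 14.6, 12.8, 17.6, 16.5 and 14.1 CPM, and the AS rats had 13.9, 11.7, 16.6, 11.9 and 11.5 CPM. The RS3 rats had 14.7, 22.3, 15.4, 16.3 and 16.2 CPM, and the RS7 rats had 18.2, 20.8, 21.2, 24.4 and 23.2 CPM. The 5 RS7 rats again stood above every C and every AS rat, although RS7 rat 2 exceeded the highest control by little. The means were 15.1 ± 1.94 CPM in C, 13.1 ± 2.16 in AS, 17.0 ± 3.06 in RS3 and 21.6 ± 2.40 in RS7 (SD, n = 5 each). The coefficients of variation of Camk4 differed less, with 11.1% in RS7, 12.8% in C, 16.5% in AS and 18.0% in RS3. RS3 rat 9 was high for both genes, while the other 4 RS3 rats had at most 16.3 CPM of Camk4 and lay below every RS7 rat.

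**Figure D1:**
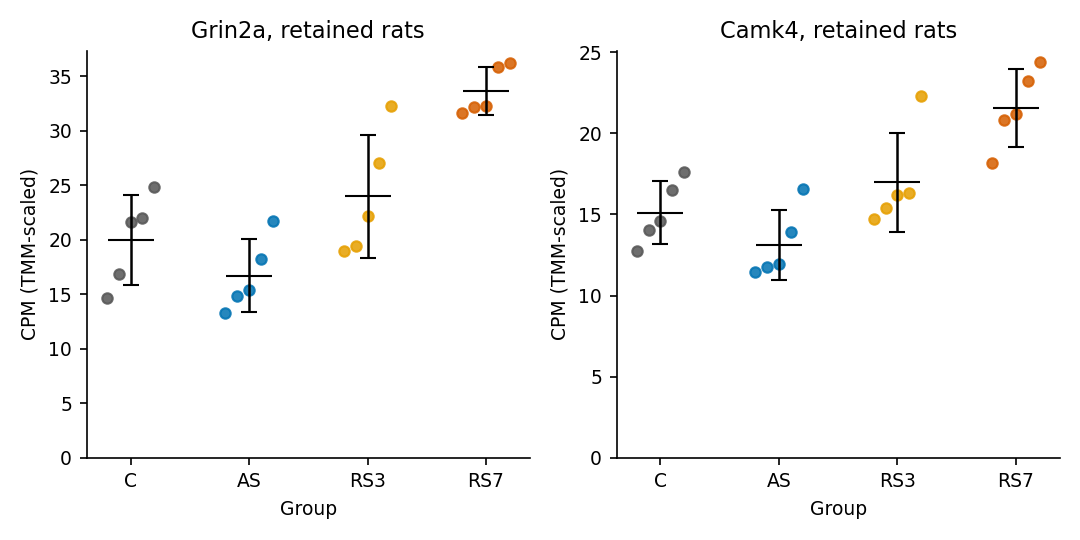
Level of Grin2a (left) and Camk4 (right) in CPM on the vertical axis for the 20 retained rats by group, each point 1 rat, with the group mean (horizontal line) and SD (bar, n = 5). The RS7 points lie between 31.7 and 36.2 CPM for Grin2a and between 18.2 and 24.4 CPM for Camk4, above all C and AS points.

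The largest differences were those that served to choose the genes. The log2 fold change of Grin2a was 0.74 (SE 0.151) in RS7 versus C, a 1.67-fold higher level, and 1.01 (SE 0.152) in RS7 versus AS, a 2.01-fold higher level. For Camk4 it was 0.51 (SE 0.117), or 1.42-fold, in RS7 versus C and 0.72 (SE 0.118), or 1.65-fold, in RS7 versus AS. Ordered by log2 fold change from the highest, Grin2a ranked 41 of 16202 genes in RS7 versus C and 22 in RS7 versus AS, and Camk4 ranked 183 and 62. These comparisons share the RS7 rats, and in bulk tissue more cells of a type and more RNA per cell cannot be told apart.

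The share of all genes that moved in these comparisons is given as background. In RS7 versus C, the quasi-likelihood test of edgeR called 24 genes at a Benjamini-Hochberg adjusted p of 0.05 or less, which is 0.148% of those tested (0.111% higher), and neither Grin2a nor Camk4 was among them. In RS7 versus AS it called 270 genes, 1.67%, and both were among the higher ones (1.19%, against 0.481% of genes called lower). The DESeq2 Wald test called 405 genes in RS7 versus C and 579 in RS7 versus AS, and limma-voom called 164 and 868, and both tools called Grin2a and Camk4 in both comparisons. Groups did not overlap, with RS7 higher, for both genes in both comparisons, which held for 2.06% of all genes in RS7 versus C and 2.39% in RS7 versus AS. Since the genes were chosen for this pattern, nothing follows from these counts.

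The other 4 comparisons were not themselves used to choose the genes, but they are not independent of that choice. They share rats with the comparisons that were used. RS3 versus AS and RS7 versus RS3 together make up RS7 versus AS, and RS3 versus C and RS7 versus RS3 make up RS7 versus C. Their unadjusted p-values and pair counts therefore carry part of the selection. A single noise exposure was followed 24 h later by values a little below control: the log2 fold change in AS versus C was -0.27 (SE 0.160) for Grin2a and -0.21 (SE 0.124) for Camk4, with adjusted p = 0.565 and 0.551 by edgeR's quasi-likelihood test. The AS rat was the higher one in 7 of 25 pairs of an AS and a C rat for Grin2a and in 5 of 25 for Camk4. Neither difference passed the test. The pooled SD of rats around their group means, on the log2 scale, was 0.27 for Grin2a and 0.20 for Camk4, about the size of these differences.

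After 3 exposures both genes stood between the AS and RS7 levels. On the log2 scale the RS3 mean of Grin2a lay 49.9% of the way from the AS mean to the RS7 mean, and that of Camk4 lay 51.0% of the way. The control mean lay 24.8% of the way for Grin2a and 28.6% for Camk4. The order of levels was therefore AS, C, RS3 and RS7 for both genes, but no pair of neighbours in it passed the test.

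In RS3 versus C the log2 fold change was 0.27 (SE 0.155) for Grin2a and 0.17 (SE 0.120) for Camk4 (adjusted p = 0.393 and 0.476, edgeR). Both values leaned on RS3 rat 9, and without it they were 0.13 and 0.05. In RS3 versus AS the log2 fold change was 0.53 (SE 0.156) for Grin2a and 0.39 (SE 0.120) for Camk4, with unadjusted p = 0.00264 and 0.00378 in edgeR's test and adjusted p = 0.810 and 0.876. The RS3 rat was higher in 23 of 25 pairs for Grin2a and 21 of 25 for Camk4, and the groups overlapped for both. Without RS3 rat 9 these log2 fold changes were 0.40 and 0.26.

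The step from 3 to 7 exposures was of similar size. In RS7 versus RS3 the log2 fold change was 0.47 (SE 0.147) for Grin2a and 0.33 (SE 0.114) for Camk4, with unadjusted p = 0.00425 and 0.00723 and adjusted p = 0.619 for both in edgeR's test. The RS7 rat was higher in 22 of 25 pairs for each gene. Leaving out RS3 rat 9 raised the values to 0.61 and 0.46, still with adjusted p above 0.05. Both steps are parts of RS7 versus AS, so their small unadjusted p-values carry the choice of the genes. The difference between these successive steps was not tested.

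No gene was called by edgeR in any of these 4 comparisons, 0% of 16202. At an unadjusted p under 0.05 edgeR had 1625 genes in AS versus C, 2639 in RS3 versus C, 747 in RS3 versus AS and 1218 in RS7 versus RS3. The DESeq2 Wald test called 0, 36, 3 and 0 genes in these comparisons and limma-voom called 0 in each, and neither called Grin2a or Camk4, except that DESeq2 gave no adjusted p for them in RS3 versus C. Groups did not overlap, in the direction in which the members differed, for 0.66% of all genes in AS versus C, 1.22% in RS3 versus C, 0.383% in RS3 versus AS and 0.87% in RS7 versus RS3, and for both members the groups overlapped in all 4. The biological coefficient of variation that edgeR estimated was 16.0% for Grin2a and 11.6% for Camk4, against a median of 7.99% over all genes.

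**Figure D2:**
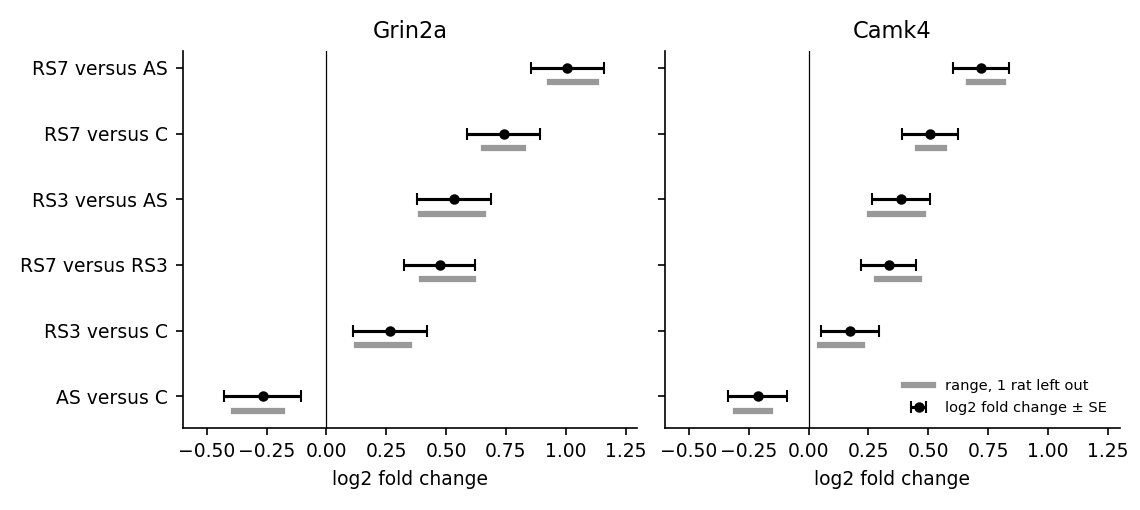
Log2 fold change (horizontal axis) of Grin2a (left) and Camk4 (right) in the 6 group comparisons, as points with SE bars from the edgeR fit of 20 rats, with a grey bar for the range when each rat is left out in turn. RS7 versus AS (1.01 and 0.72) and RS7 versus C (0.74 and 0.51) were used to choose the genes, and AS versus C is the one comparison below 0 (-0.27 and -0.21).

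The 4 excluded rats gave values from animals that the choice of the genes had not used, though from libraries the study judged to be of low quality. On a scale set over all 24 rats, Grin2a was 21.0 CPM in C rat 20 (retained C rats 13.8 to 23.5), 15.3 CPM in AS rat 18 (retained AS rats 12.5 to 20.6), 27.1 CPM in RS3 rat 8 (17.8 to 30.7) and 34.1 CPM in RS7 rat 1 (29.9 to 34.3). Each excluded rat thus fell within the Grin2a range of its own group, and RS7 rat 1 stood above 19 of the 20 retained rats. The value of AS rat 18 rested on 40 reads.

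Camk4 kept to its group in only some of these libraries. C rat 20 had 14.5 CPM (retained C rats 12.1 to 16.7) and RS3 rat 8 had 19.0 CPM (13.8 to 21.2), both within range. RS7 rat 1 had 33.2 CPM (17.2 to 23.1) and AS rat 18 had 25.6 CPM (10.8 to 15.7), each above all 20 retained rats. AS rat 18 therefore went against the order seen in the retained rats, on 67 reads. In these libraries the 10 most abundant genes held 46.3% (AS rat 18) and 33.8% (RS7 rat 1) of the counts, against at most 20.3% in the retained rats, and the part of this in the Camk4 values was not tested. With all 24 rats in the fit, the log2 fold change of Camk4 in AS versus C was -0.07 in place of -0.21, and that in RS7 versus C was 0.65 in place of 0.51.

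**Figure D3:**
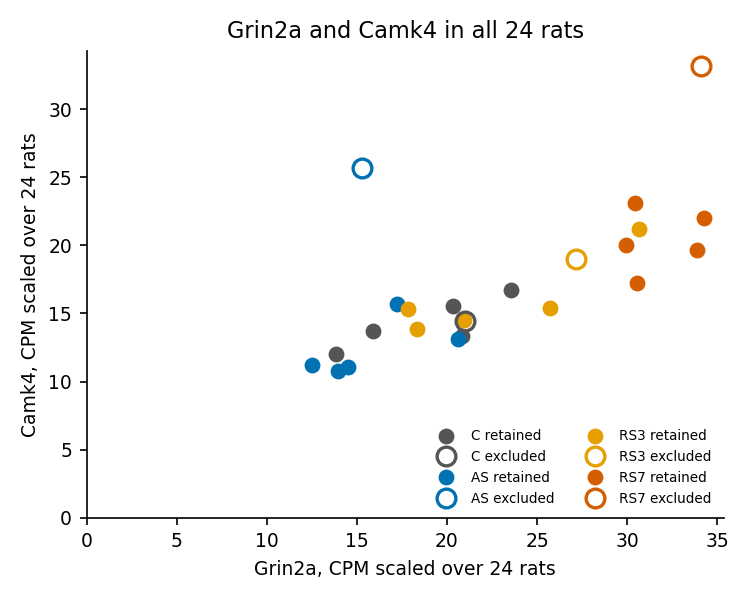
Camk4 level (vertical axis) against Grin2a level (horizontal axis) in all 24 rats, in CPM scaled over 24 rats, with filled points for retained and larger open circles for excluded rats, coloured by group. The open circles of AS rat 18 (15.3 and 25.6 CPM) and RS7 rat 1 (34.1 and 33.2 CPM) lie above the band of the other rats.

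Grin2a and Camk4 also varied together among rats of the same group. After each group's mean was subtracted from the log2 CPM, which removes the differences used to choose the genes, Pearson's r over the 20 retained rats was 0.705 (permutation p = 0.00272, adjusted p = 0.00637 over 5 relations) and Spearman's rho was 0.605 (permutation p = 0.0111, adjusted p = 0.0185). In 16 of 20 rats both genes lay on the same side of their group means. Without RS3 rat 9 and AS rat 13, whose Grin2a deviations lay farthest from the median deviation of all rats, r was 0.605 (permutation p = 0.0143). The permutations were two-sided and exchanged rats within groups. Before group means were subtracted r was 0.909, and of the 16201 other genes Camk4 ranked 17 in likeness to Grin2a and Grin2a ranked 13 in likeness to Camk4.

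The level of a list of dorsal thalamus marker genes moved with both genes. Slc17a6 had the highest mean level on the list, with 578 CPM in C and 753 in RS7. How specific the listed genes are to thalamus in these blocks was not tested. The list of dorsal thalamus markers had 14 genes, of which 9 had an identifier: Tcf7l2, Lef1, Rora, Slc17a6, Ntng1, Plekhg1, Synpo2, Slitrk6 and Vav3. None was at 0 in any retained rat, and their summed level was 1419 to 1895 CPM in C, 1478 to 2011 in AS, 1509 to 2308 in RS3 and 2117 to 2697 in RS7, so the RS7 rats stood above all C and AS rats here too. All 9 had a positive log2 fold change in RS7 versus C (median 0.42), RS7 versus AS (0.45) and RS7 versus RS3 (0.24), where the median over all genes tested was near 0. The identifiers exist here only for genes that the study had listed as changed, so the direction of these counts supports nothing.

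Within groups, with group means subtracted, Grin2a followed the mean log2 CPM of the thalamic list with r = 0.789 (permutation p = 0.00038, adjusted p = 0.0019) and rho = 0.786 (adjusted p = 0.00165). Camk4 followed it with r = 0.698 (permutation p = 0.00382, adjusted p = 0.00637) and rho = 0.659 (adjusted p = 0.0139). Subtracting group means does not undo the choice of the listed genes, which all came from genes listed as changed in these same rats. Rora, on that list, was also the gene nearest to Grin2a within groups (r = 0.902). How far this choice of genes affects the relations was not tested. The within-group relation of Grin2a and Camk4 to the general neuronal genes Snap25, Nefl and Thy1 was not tested. The relations above are therefore not shown to be particular to the thalamic list. Without RS3 rat 11 and C rat 21, the rats farthest from the median deviation of the list, r was 0.698 for Grin2a (permutation p = 0.00456) and 0.762 for Camk4 (permutation p = 0.00105). RS3 rat 9, the highest RS3 rat for both genes, was also the highest RS3 rat in the thalamic list at 7.39, and C rat 21, the lowest C rat for both, was the lowest there at 6.56. These places were not particular to that list. In mean log2 CPM of the identified NMDA receptor scaffold genes the same rats were highest (5.42) and lowest (4.83). For the general neuronal genes RS3 rat 9 was again highest in RS3 (10.13), but C rat 19 was lowest in C (9.83). Other rats did not follow the thalamic list. RS3 rat 7 lay above its group mean in the list (0.107) but below it for Grin2a (-0.270) and Camk4 (-0.190). RS7 rat 6 lay above it for Grin2a (0.108) and Camk4 (0.113) but below it in the list (-0.052). The part of thalamic tissue in the group differences of Grin2a and Camk4 was not tested here. The study also measured both RNAs by in situ hybridization over the rPH in additional rats. It reported both as significantly higher in the RS7 group than in controls.

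**Figure D4:**
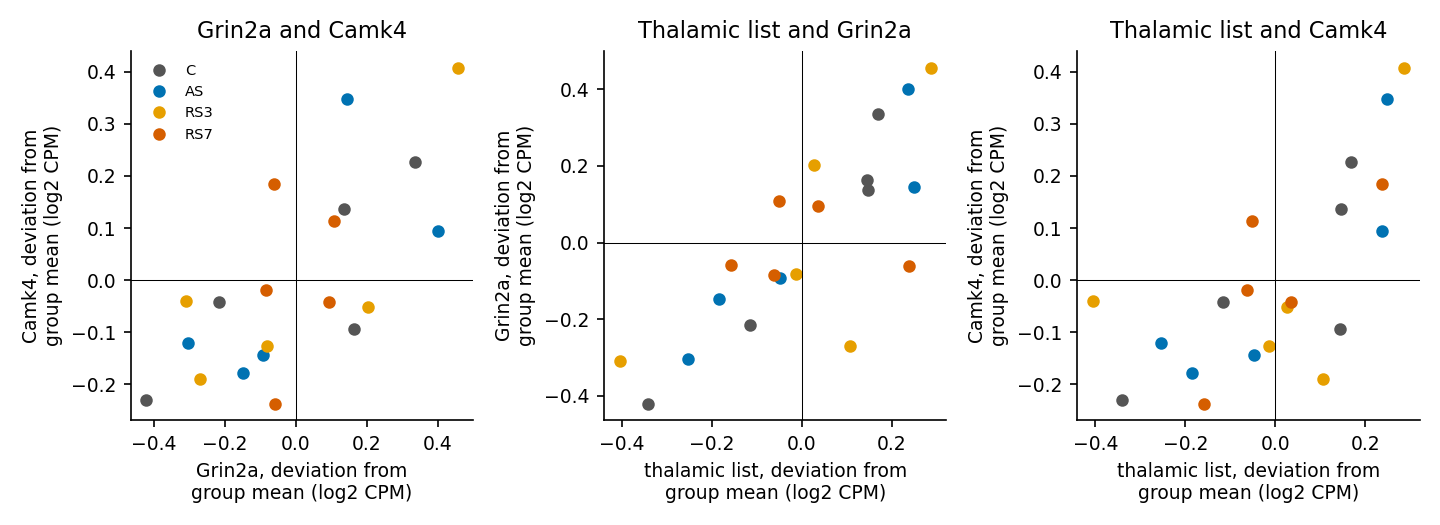
Deviations from the group mean in log2 CPM for the 20 retained rats, coloured by group: Camk4 against Grin2a (left), Grin2a against the mean of the 9 thalamic genes (middle) and Camk4 against it (right). The points rise together in each panel, with r = 0.705, 0.789 and 0.698.

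Genes of prethalamic and hypothalamic neurons had lower sums in the RS3 and RS7 groups. The list of GABA neuron markers, with 7 of 9 genes identified (among them Gad1, Gad2, Slc32a1, Dlx5, Dlx6 and Isl1), summed to 602.5 to 1028 CPM in C, 705.2 to 1015 in AS, 503.6 to 696.3 in RS3 and 487.5 to 659.0 in RS7. Within groups its relation to the members did not pass the test: r was -0.241 for Grin2a (permutation p = 0.321, adjusted p = 0.321, rho -0.146, adjusted p = 0.523) and -0.398 for Camk4 (permutation p = 0.0918, adjusted p = 0.115, rho -0.385, adjusted p = 0.147). Without C rat 23 and AS rat 16, the rats farthest from the median deviation of the list, r was -0.416 (permutation p = 0.0201) and -0.506 (permutation p = 0.0315). The 5 identified neuropeptide genes of 8 summed to 31.2 to 299.5 CPM in C, 50.5 to 339.4 in AS, 16.9 to 156.0 in RS3 and 9.92 to 40.4 in RS7.

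General neuronal and astrocyte markers differed less between groups in their sums. Snap25, Nefl and Thy1, 3 of 5 listed neuronal genes, summed to 2879 to 3170 CPM in C, 2679 to 3157 in AS, 3027 to 3554 in RS3 and 3213 to 3647 in RS7. Every RS7 rat thus had a higher neuronal sum than every C and AS rat, as in the thalamic list. Aqp4, Slc1a2 and Slc1a3, 3 of 6 astrocyte genes, summed to 1888 to 2295 CPM in C, 1751 to 1945 in AS, 1790 to 1895 in RS3 and 1751 to 2033 in RS7. No oligodendrocyte or microglial marker of the lists had an identifier. In RS7 versus AS edgeR called 2 of the 9 thalamic genes higher (Rora and Slitrk6), 1 of the 7 GABA neuron genes lower (Gad1) and, of the neuronal and astrocyte genes, Snap25 and Slc1a2 higher, and it called none of the 5 neuropeptide genes. Over all genes it called 1.19% higher and 0.481% lower there. Since these markers have identifiers only through the lists of changed genes, nothing is read from these counts. Whether any of these cell types has a part in the Grin2a and Camk4 differences was not tested.

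**Figure D5:**
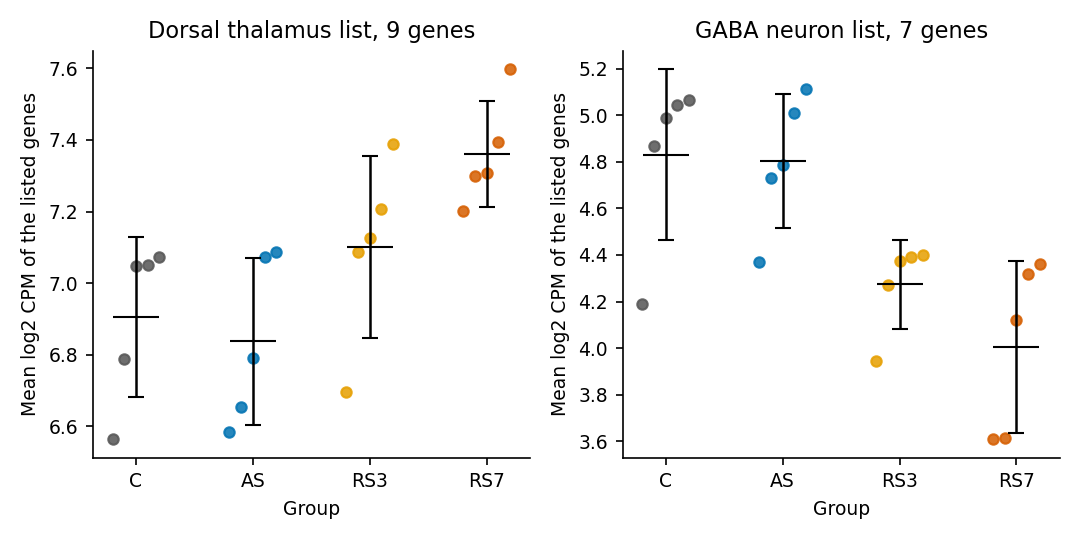
Mean log2 CPM (vertical axis, not starting at 0) of the 9 dorsal thalamus genes (left) and the 7 GABA neuron genes (right) in each of the 20 retained rats by group, with the group mean and SD (n = 5). The thalamic list is highest in the RS7 rats, as Grin2a and Camk4 are, and the GABA neuron list is lower in the RS3 and RS7 groups than in most C and AS rats.

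For the pathway lists that follow, too, identifiers exist only for genes that the study listed as changed, so their directions and shares of calls come with that selection and support nothing. Among the NMDA receptor subunits, 2 of 7 listed genes had an identifier, Grin2a and Grin2b. Grin2b, which encodes GluN2B, had 34.2 ± 6.00 CPM in C, 28.2 ± 3.78 in AS, 33.6 ± 4.53 in RS3 and 39.3 ± 4.07 in RS7. Its log2 fold changes were 0.48 (SE 0.113) in RS7 versus AS, where edgeR called it, and 0.20 (SE 0.113) in RS7 versus C, so both subunits were lowest in AS and highest in RS7, with the larger range in Grin2a. The log2 ratio of Grin2a to Grin2b reads within a library, which is free of the scaling between libraries but not corrected for transcript length, was -0.78 ± 0.0703 in C, -0.77 ± 0.173 in AS, -0.51 ± 0.208 in RS3 and -0.22 ± 0.171 in RS7 (SD, n = 5). The ratios of C and AS differed by less than the spread between rats, and every RS7 rat (lowest -0.40) was above every C (highest -0.70) and AS rat (highest -0.48). This ratio contains the Grin2a differences used for the choice and was not tested.

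No gene of the list of AMPA, kainate and delta glutamate receptor subunits (11 listed) had an identifier. Of 16 scaffold and regulator genes of the NMDA receptor 3 had one, and edgeR called none of them in any comparison. Homer2 and Lrrc7, which encode postsynaptic density proteins, had log2 fold changes of 0.43 (SE 0.121) and 0.47 (SE 0.147) in RS7 versus AS, and Cdk5, a kinase that acts on the receptor, had 0.11 (SE 0.0756).

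Of 20 calcium/calmodulin genes 6 had an identifier, and all 6 had positive log2 fold changes in RS7 versus AS (median 0.37), of which edgeR called 3 higher (Camk4, Camk1d and Ppp3ca), against 1.19% of all genes, a count set by the same selection. Camk1d, which encodes another calmodulin-dependent kinase, had 71.2 ± 6.83 CPM in C, 64.2 ± 5.97 in AS, 76.7 ± 11.5 in RS3 and 89.0 ± 7.89 in RS7, with a log2 fold change of 0.47 (SE 0.0893) in RS7 versus AS. Ppp3ca, the catalytic subunit of the calcium-activated phosphatase calcineurin, had a smaller log2 fold change of 0.26 (SE 0.0528). Ppp2ca, a phosphatase catalytic subunit, had 0.18 (SE 0.0845) and Pcp4, a calmodulin-binding protein, had 0.52 (SE 0.137), neither of them called. The log2 ratio of Camk4 to Camk1d reads was -2.24 ± 0.0872 in C, -2.30 ± 0.122 in AS, -2.18 ± 0.158 in RS3 and -2.05 ± 0.0622 in RS7, a shift smaller than that of Grin2a over Grin2b.

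Of 15 CREB-related and other nuclear genes 2 had an identifier. Rora, a nuclear receptor also on the thalamic list, had 11.5 ± 4.20 CPM in C, 9.06 ± 2.43 in AS, 14.2 ± 3.49 in RS3 and 20.0 ± 2.33 in RS7 (SD, n = 5 each), the same order of groups as the members, with a log2 fold change of 1.14 (SE 0.210) in RS7 versus AS, where edgeR called it. Mef2a, an activity-regulated transcription factor, had 0.35 (SE 0.0930) and was not called. Of 10 activity-dependent genes 2 had an identifier and both were lower in RS7 than in AS. Arc, an immediate-early gene of synapses, fell by 0.72 on the log2 scale (SE 0.169) and was called by edgeR, and Plk2 had -0.17 (SE 0.0802) and was not. In RS7 versus C edgeR called no gene of these lists.

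The genes whose levels most resembled each member were read from Pearson's r of log2 CPM over the 20 retained rats, which share libraries, groups and scaling, so r is a description. For Grin2a they were Rora (0.964), Myo5a (0.963), Kcnh5 (0.960), Vps13c, Fzd3, Bltp1, Arfgef3, Kcnq3, Rab3c and Lnpep (0.928). For Camk4 they included Cux2 (0.945), Atp2b2 (0.943), Camk1d (0.938), Slc24a2, Scn1a, Pde7b, Dpp8 and Scn8a (0.915). Those next to Grin2a include the potassium channel genes Kcnh5 and Kcnq3 and the Wnt receptor gene Fzd3. Those next to Camk4 include the calcium pump gene Atp2b2 and the sodium channel genes Scn1a and Scn8a. The lists of the 10 nearest genes had no gene in common.

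Much of the likeness was present among rats of the same group. With group means subtracted, the 10 genes nearest to Grin2a included Rora (0.902), Kcnh5 (0.890), Myo5a (0.879), Mapk8, Fzd3, Arfgef3 and Kcnq3 (0.833). The 10 nearest to Camk4 included Scn1a (0.902), Atp2b2 (0.902), Cux2 (0.897), Pde7b and Plekhd1 (0.890). On this measure Camk4 ranked 164 of 16201 genes in likeness to Grin2a and Grin2a ranked 161 in likeness to Camk4.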

How the data were processed

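RNA-seq was performed on the rPH block of 24 rats. The authors made poly(A) paired-end libraries, trimmed the reads (Trimmomatic 0.36), mapped them to rn6 (HISAT2 2.0.5) and counted them on Ensembl genes (featureCounts), per the labels and the study's methods, and deposited 1 table of unnormalized read counts, of which 7066 genes are at 0 in all rats. How strand and multiply mapped reads were treated is not stated in the sources used here, so overlapping genes could have exchanged reads.

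The excluded rats are not numbered in the study. Of 1296 sets leaving out 1 rat per group, 1 set gave the baseMean of all 821 rows of the study's gene lists (relative tolerance 1e-06), and the next best gave 1. Those lists are also the source of 744 gene symbols, since the reference table held 0 Ensembl identifiers. Where a symbol had 2 identifiers, the one with more counts was used. The columns of fold changes and p-values in those lists were not used.

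Counts were analysed in R 4.3.3 with edgeR 4.0.16 (TMM, minimum count 10, robust quasi-likelihood test, 4 groups in 1 fit without covariates, Benjamini-Hochberg adjustment over 16202 genes, threshold 0.05), after the script was tested on simulated data. Differences are the first named group minus the second. Log2 CPM used a prior count of 2. Alternatives were DESeq2 1.42.0, DESeq2 size factors in edgeR, limma-voom 3.58.1 with sample quality weights, no filter, all 24 rats, fits of the compared groups alone and fits with 1 rat fewer. A fit lacking the retained libraries most dominated by a few genes (C rats 21 and 22, RS7 rat 4) was added after seeing the data. Within-group relations used 100000 permutations of rats within groups.

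Grin2a and Camk4 and all gene lists were chosen with earlier results of these data known. Named genes are the members, list genes with an identifier and the 10 genes most like each member, of which some are not reported here. Intervals from counts cover counting error only.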

Additional observations from a re-analysis of the deposited data

Results flagged for a closer look

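Camk4 in RS3 rat 9 stood apart from the other RS3 rats. Its 22.3 CPM left a gap to the next RS3 rat that was 0.788 of the whole range of the group, above the critical value of 0.71 for 5 rats. The 8 groups of rats, 4 for each gene, were searched in this way, and chance flags about 1 in 20 groups. The same rat was the highest of its group for Grin2a at 32.3 CPM, without passing that value. Without it the log2 fold change in RS3 versus C was 0.13 for Grin2a and 0.05 for Camk4, in place of 0.27 and 0.17.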

How the results depend on the processing

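Of 437 values recomputed under an alternative, 434 kept their direction and their side of the threshold, or, for the comparisons without a test, moved by less than the spread between rats. With all 24 rats the within-group relation to the GABA neuron list turned positive, with r = 0.00776 for Grin2a and 0.0427 for Camk4, and the cause was not tested. For Camk4 that r ran from -0.508 (without AS rat 16, adjusted p = 0.0297) to -0.294 when 1 rat was left out. With all 24 rats the within-group r of Grin2a with Camk4 was 0.458 in place of 0.705, still past the threshold. When 1 rat was left out, the log2 fold change of Grin2a ran from 0.66 to 0.82 in RS7 versus C and from 0.93 to 1.13 in RS7 versus AS, and that of Camk4 from 0.46 to 0.56 and from 0.67 to 0.81. No alternative that gave an adjusted p brought Grin2a or Camk4 past the threshold in the 4 tested comparisons. DESeq2 gave none for RS3 versus C (log2 fold changes 0.27 and 0.17). With 5 rats per group and 96 to 544 reads per gene, counting error is below the spread between rats in most groups. No paired analysis was possible because each rat number occurs once and the groups share none.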
